A study of Mus musculus with 12 samples.

Results

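This report covers 39 mouse genes of the interferon response, measured on microarrays in glomeruli isolated from 2 inbred strains, C57BL6J and 129S2SvPAs. The genes were taken from a list of named members that span the sensors of viral nucleic acid, the transcription factors that carry the interferon signal, the ISG15 system, the antiviral effectors, the interferon-inducible GTPases and the antigen-processing genes. Of the 39 genes, 37 had a probe set assigned to that gene alone, out of 18201 such genes on the array. Of these 37, 32 passed a filter on low values and were tested, among 11921 genes tested in all. Isg15 was represented by a probe set shared with other symbols and Ifi44 by no probe set in the annotation used here, so neither has a value. Zbp1, Oas2, Oas3, Mx1 and Mx2 lay under the filter, with log2 signals between 2.26 and 3.08 on every array, against a median of 3.03 over the whole table. Zbp1 is a sensor of nucleic acid in the Z form, Oas2 and Oas3 make the second messenger that activates RNase L, and Mx1 and Mx2 are dynamin-like GTPases that act on viruses.

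The study set healthy glomeruli beside glomeruli from anti-GBM glomerulonephritis (anti-GBM GN), an injury caused by antibodies that bind the glomerular basement membrane. All mice were females from Charles River, 8 to 10 weeks old. The anti-GBM GN mice were given nephrotoxic serum on days 0, 1 and 2, and day 4 was the day of kidney removal. Each strain gave a control group and an anti-GBM GN group, which makes 4 groups of 3 mice, with 1 array per mouse. No genotype beyond the strain is labelled, and the labels do not say what the control mice received in place of serum. Glomeruli were passed over nylon sieves of 100 and 45 µm, so each value is from a tissue fraction that holds podocytes, endothelium, mesangium, resident or infiltrating leukocytes and some attached tubule. In such a fraction, fewer cells of a type and less RNA per cell cannot be told apart.

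Interferons are secreted proteins that warn cells of infection. Type I interferons bind the receptor made of Ifnar1 and Ifnar2, whose kinases phosphorylate STAT2. A complex that holds STAT2 and IRF9 then binds the interferon-stimulated response element (ISRE) in the promoters of many genes. Interferon gamma acts through Ifngr1 and Ifngr2 and the gamma-activated site (GAS) of promoters, and many of the GTPase and antigen-processing genes respond mainly to it. In the kidney these genes are best known for their induction in lupus nephritis.

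The promoters are shown first, because the ISRE is what these genes are known to share and the choice of genes did not use it. RefSeq promoter windows on GRCm38.p6, from 250 bases before to 50 bases after the annotated start, were found for 30 of the 39 genes. Dhx58, Zbp1, Usp18, Oas2, Mx1, Mx2, Iigp1, Rtp4 and Parp14 had no entry. The core of the ISRE, searched as GAAA, any 2 bases and GAAA again, occurred on either strand in 15 of the 30 windows, against 3.99% of the 27025 genes of the promoter table. The same letters followed at once by CT were in 7 windows (23.3%), against 0.303% of all genes. TTCNNNGAA, the letters of the GAS, which read the same on both strands and can overlap an ISRE, was in 9 of the 30, against 9.55%. The NF-kB letters GGG, any 2 bases and TTTCC were on either strand of none of the 30, against 1.89% of all genes. The nearest ISRE match lay at a median position of -64, where -1 is the last base before the start and 0 the start itself, and 12 of the 15 lay before the start. Among the members lower in 129S2SvPAs controls that had a window, 9 of 17 held the core (52.9%), and among those that rose with anti-GBM GN on average, 6 of 16 did (37.5%). A match is a description of letters and no evidence that a factor binds there.

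Printed here are the promoters of the 4 genes that held the ISRE core and had the lowest p for the response averaged over the strains, and of the 1 with the lowest p that held the GAS letters without the ISRE core. They run 5′ to 3′ in the direction of the gene, and capitals mark the matched letters, or their complement where the match is on the other strand. Rsad2 lies on chr12:26456453-26456702 (minus strand), Bst2 on chr8:71537473-71537722 (minus strand) and Ifit1 on chr19:34640639-34640888 (plus strand), each being the 250 bases before the start. Rsad2 has 1 match, beginning at -120. Bst2 has 2 overlapping matches, at -130 and -124, and Ifit1 has 2 separate ones, at -104 and -85. For Ifitm3 the stretch shown is chr7:141010715-141010743 (minus strand), just after the start, with matches beginning at 2 and 19. For Ifi35 it is chr11:101448418-101448428 (plus strand), with GAS letters beginning at position 7 after the start.
Rsad2: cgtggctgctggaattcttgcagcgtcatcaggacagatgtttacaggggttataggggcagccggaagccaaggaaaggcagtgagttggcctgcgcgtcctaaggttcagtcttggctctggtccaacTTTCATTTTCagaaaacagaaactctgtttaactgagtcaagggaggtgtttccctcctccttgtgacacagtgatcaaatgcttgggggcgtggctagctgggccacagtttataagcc
Bst2: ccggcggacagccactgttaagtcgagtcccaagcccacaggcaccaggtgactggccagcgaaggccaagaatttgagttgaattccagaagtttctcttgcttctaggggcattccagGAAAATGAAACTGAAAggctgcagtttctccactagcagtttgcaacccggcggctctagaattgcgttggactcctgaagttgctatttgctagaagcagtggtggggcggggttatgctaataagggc
Ifit1: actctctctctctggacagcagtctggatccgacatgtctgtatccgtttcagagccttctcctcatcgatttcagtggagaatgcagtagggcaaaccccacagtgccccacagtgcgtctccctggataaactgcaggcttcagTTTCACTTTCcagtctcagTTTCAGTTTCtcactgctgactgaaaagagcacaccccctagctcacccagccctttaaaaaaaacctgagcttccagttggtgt
Ifitm3: gGAAAAGGAAActtctgaGAAACCGAAAc
Ifi35: aTTCACAGAAa

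The 32 tested genes as a list were lowest in healthy 129S2SvPAs and highest in diseased C57BL6J glomeruli. Their mean on each array, taken after subtracting each gene's mean over the 12 arrays on the log2 scale, was 0.29 ± 0.09 (SD, n = 3) in C57BL6J controls and 1.01 ± 0.22 (SD, n = 3) in C57BL6J anti-GBM GN. It was -1.02 ± 0.20 (SD, n = 3) in 129S2SvPAs controls and -0.28 ± 0.37 (SD, n = 3) in 129S2SvPAs anti-GBM GN. The 129S2SvPAs controls had the lowest of the 4 group means for 26 of the 32 genes, and C57BL6J anti-GBM GN had the highest for 29. For 26 genes the mean in diseased 129S2SvPAs glomeruli was still below that in healthy C57BL6J glomeruli. In 12 of these, every array of the former was below every array of the latter, and for 1 gene, Ifi35, the arrays were separate the other way. One array stood apart: replicate 1 of 129S2SvPAs anti-GBM GN correlated with its group at r = 0.974 and 0.973 across genes, against 0.994 between the other pair, and it was the lowest of its 3 arrays for 29 of the 32 genes. Its mean over the genes was -0.71, beside -0.09 and -0.05 on the other arrays of its group.

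**Figure D1:**
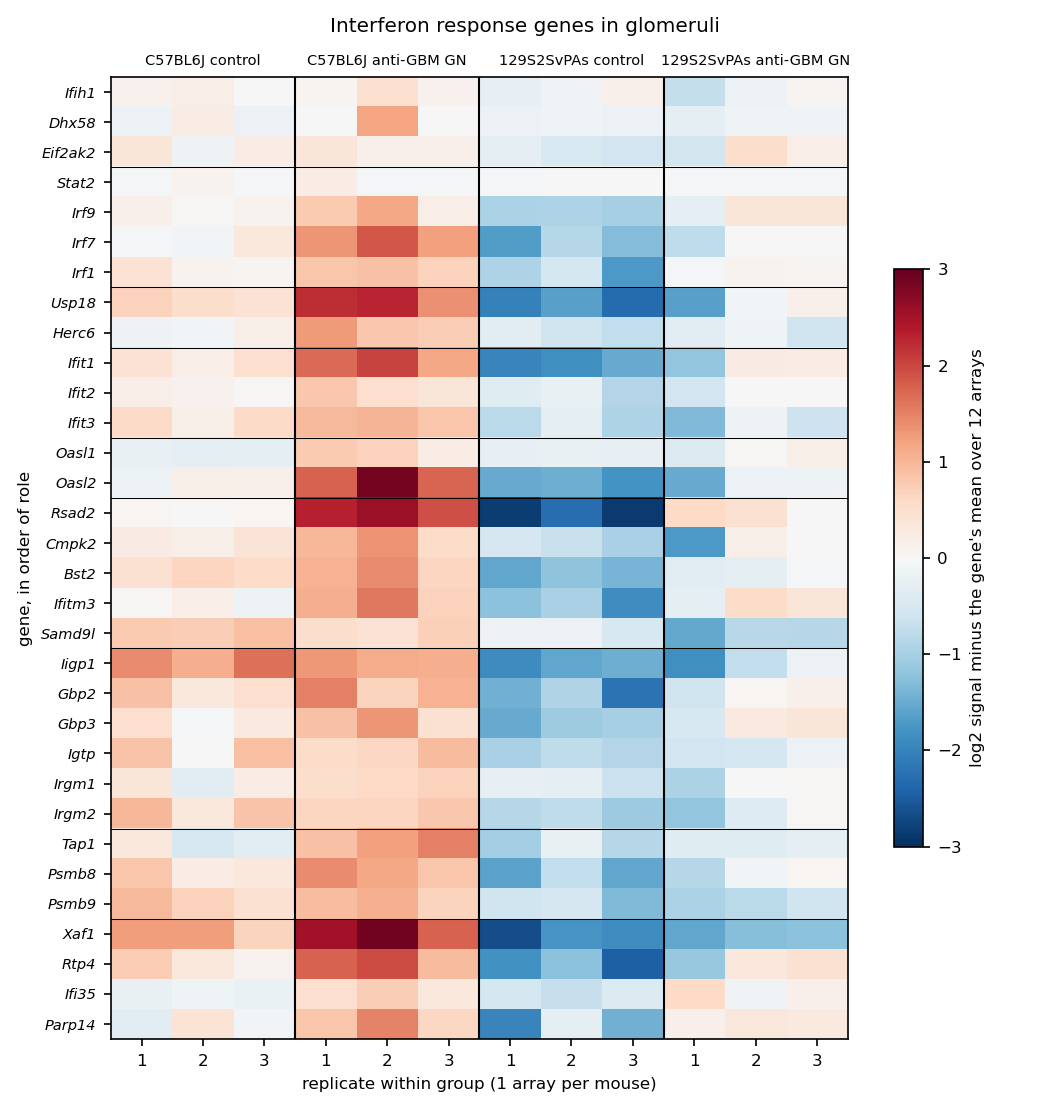
Log2 signal of each of the 32 tested genes (rows, in order of role, horizontal lines between roles) on each of the 12 arrays (columns, 3 per group), minus the gene's mean over the 12 arrays; red is above and blue below that mean. The 129S2SvPAs control columns are the bluest, with a mean of -1.02 over the genes, and the C57BL6J anti-GBM GN columns the reddest, with 1.01.

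The comparison of anti-GBM GN with control asks which of these genes the disease state moved in each strain. Values are log2 probe-set signals, where several probe sets read a gene the one with the highest mean stands for it, and a gene is said to rise or fall when limma's moderated test across all 11921 genes gave an adjusted p (Benjamini-Hochberg) under 0.05. The files hold no detection call, so where arrays of a group lay at or under the table median of 3.03, those values were set to 3.03 and the fold is written as at least that size, beside the p of the fit on the values as deposited. In C57BL6J mice 9 of the 32 genes rose and none fell, against 7.09% of all genes tested called in either direction (4.78% higher and 2.31% lower); the risers were Rsad2, Oasl2, Irf7, Tap1, Xaf1, Ifitm3, Herc6, Oasl1 and Ifi35. In 129S2SvPAs mice 14 rose and 1, Samd9l, fell, against 20.3% of all genes called (10.6% higher and 9.76% lower). The risers there were Rsad2, Rtp4, Ifitm3, Ifit1, Parp14, Usp18, Gbp2, Gbp3, Bst2, Irf9, Irf1, Irf7, Psmb8 and Ifi35. The median log2 difference over the 32 genes was 0.63 in C57BL6J and 0.74 in 129S2SvPAs, beside medians of -0.03 and 0.00 over all genes tested. All 3 diseased arrays lay above all 3 control arrays for 20 of the 32 genes in C57BL6J (13.2% of all genes) and for 15 in 129S2SvPAs (16.4% of all genes). Averaged over the strains, 19 genes rose and 1 fell (26.6% of all genes were called, 13.0% higher and 13.6% lower), and leaving out any 1 array kept all 20 of these calls.

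**Figure D2:**
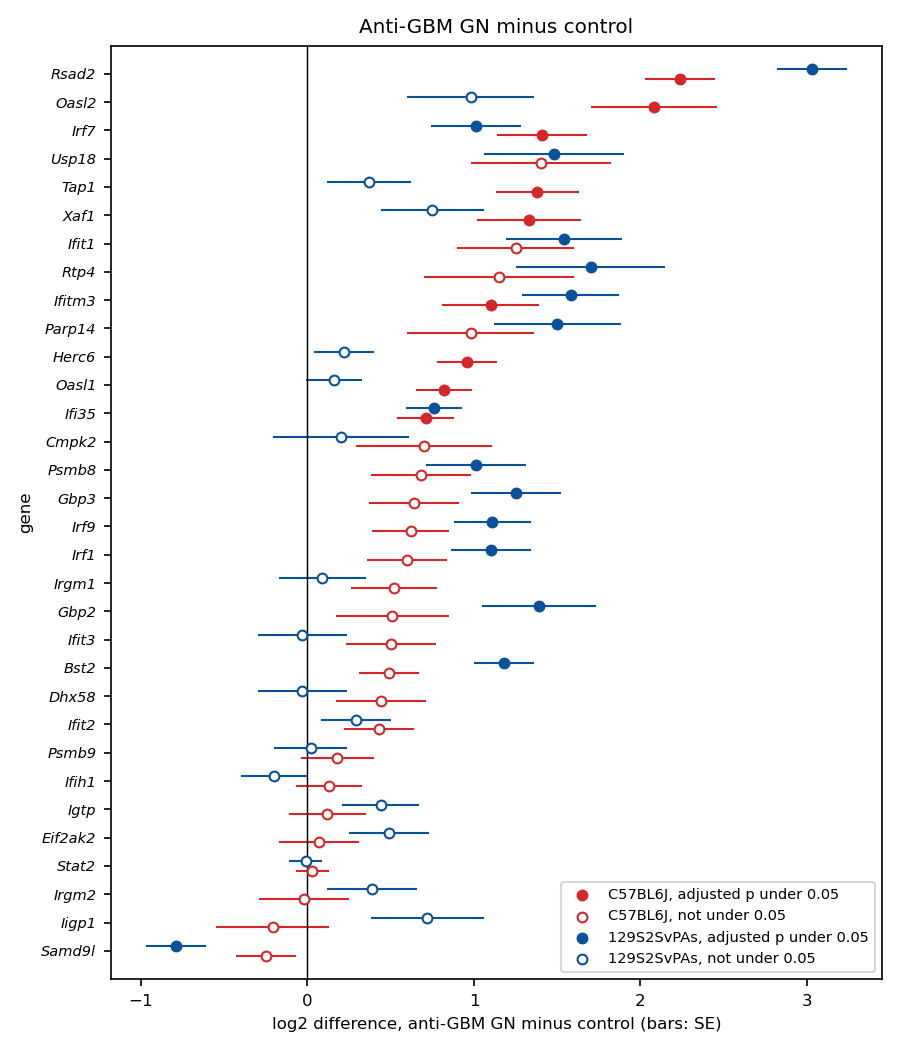
Log2 difference between anti-GBM GN and control for each of the 32 genes (rows), in C57BL6J (red) and 129S2SvPAs (blue); points are the fitted differences from 3 arrays a group, bars their SE, and filled points have an adjusted p under 0.05. Rsad2 is at the top in both strains, at 2.24 and 3.03, and Samd9l at the bottom, at -0.25 and -0.79.

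The comparison between the strains asks how the strains differ at the same state. In healthy glomeruli 20 of the 32 genes were lower in 129S2SvPAs than in C57BL6J and none was higher, against 8.43% of all genes tested called in either direction (5.11% lower and 3.32% higher). With anti-GBM GN 19 were lower and none was higher, against 8.38% of all genes called (4.89% lower and 3.49% higher). The median log2 difference, 129S2SvPAs minus C57BL6J, was -1.31 in healthy and -1.22 in diseased glomeruli, while over all genes it was 0.00 and 0.03. The difference was negative for 31 of the 32 genes in controls and for all 32 in anti-GBM GN. Every 129S2SvPAs array lay below every C57BL6J array for 25 genes in controls (14.3% of all genes) and for 27 in anti-GBM GN (12.6% of all genes). The 2 sets shared 15 genes, which is 15 of the 20 lower in controls and 78.9% of the 19 lower in anti-GBM GN. Gbp2, Gbp3, Ifitm3, Irf1 and Irf9 were called lower in controls and not in anti-GBM GN, and Herc6, Ifit2, Oasl1 and Tap1 the other way round; for none of these 9 was the difference between the states itself past the threshold. Xaf1 is counted among the genes lower in 129S2SvPAs by 1 of its 2 probe sets, and the other gave the opposite direction.

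**Figure D3:**
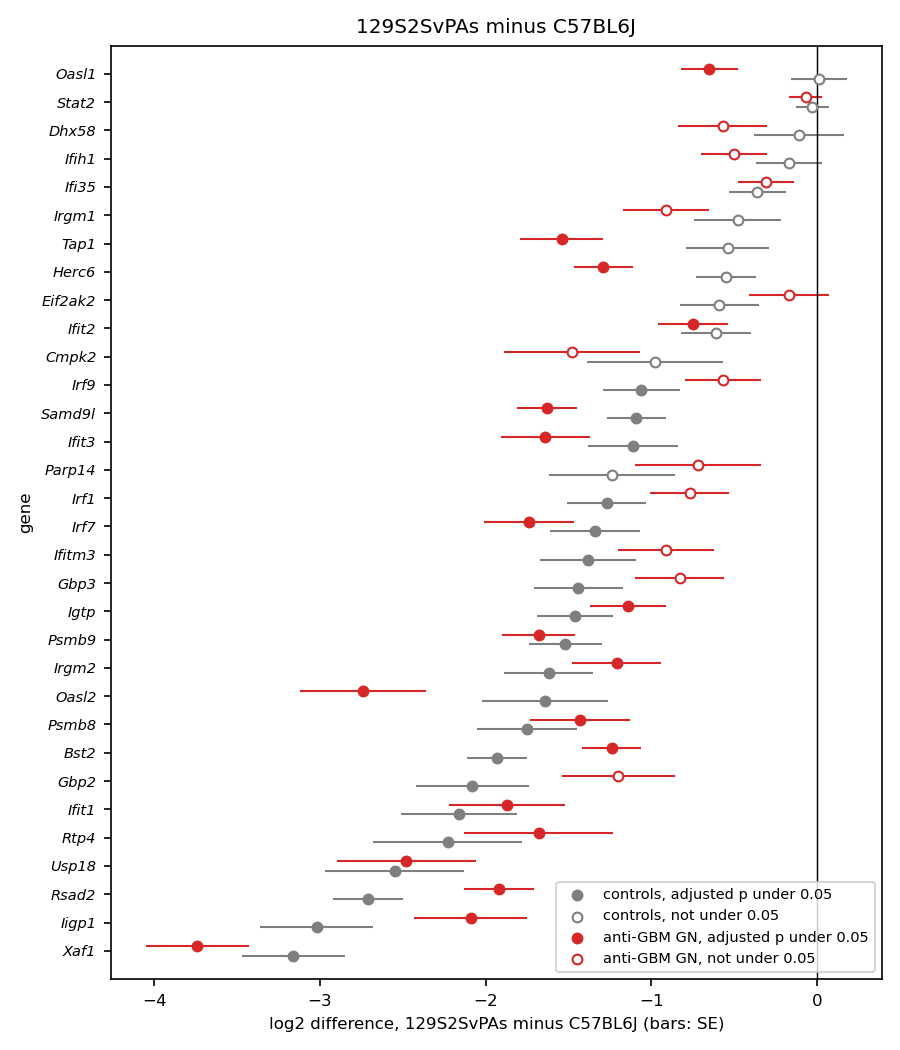
Log2 difference between the strains, 129S2SvPAs minus C57BL6J, for each of the 32 genes (rows), in controls (grey) and anti-GBM GN (red); points are fitted differences from 3 arrays a group, bars their SE, and filled points have an adjusted p under 0.05. All but 1 of the points lie left of 0, the exception being Oasl1 in controls at 0.01.

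None of the 3 tested sensors of viral RNA passed the test in any comparison. Ifih1 (MDA5, which binds long double-stranded RNA), Dhx58 (LGP2, its regulator) and Eif2ak2 (PKR, the kinase that halts translation) make up this group. The log2 signals of Ifih1 were 7.07, 7.15 and 6.93 in C57BL6J controls, 7.02, 7.43 and 7.08 in C57BL6J anti-GBM GN, 6.71, 6.83 and 7.10 in 129S2SvPAs controls and 6.24, 6.77 and 7.03 in 129S2SvPAs anti-GBM GN. The ranges of the 4 groups overlapped, and the fitted differences with disease were 0.13 in C57BL6J and -0.20 in 129S2SvPAs. Eif2ak2 differed by 0.07 and 0.49 with disease (adjusted p = 0.925 and 0.186). Dhx58 lay near the table median on most arrays, with differences of 0.44 and -0.03.

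Of the 4 transcription factors 1, Irf7, rose in C57BL6J and 3, Irf7, Irf9 and Irf1, rose in 129S2SvPAs, while Stat2 passed no test. In controls 3 of the 4 were lower in 129S2SvPAs, and in anti-GBM GN 1. Irf7 amplifies the response by driving interferon alpha genes. Its log2 signals were 4.15, 4.11 and 4.49 in C57BL6J controls, 5.51, 6.05 and 5.41 in C57BL6J anti-GBM GN, 2.51, 3.33 and 2.88 in 129S2SvPAs controls and 3.42, 4.16 and 4.17 in 129S2SvPAs anti-GBM GN. The groups were separate except that healthy C57BL6J overlapped with diseased 129S2SvPAs glomeruli. Irf7 rose 2.65-fold in C57BL6J (log2 difference 1.41, SE 0.27, adjusted p = 0.00946) and at least 1.73-fold in 129S2SvPAs, where 2 of the 3 controls were under the table median (1.01, SE 0.27, adjusted p = 0.0212). It was at least 2.17-fold lower in 129S2SvPAs controls (adjusted p = 0.0109) and 3.34-fold lower in 129S2SvPAs anti-GBM GN (adjusted p = 0.00238). Irf9 is the DNA-binding partner of STAT2. It read 6.40, 6.30 and 6.36 in C57BL6J controls, 7.04, 7.42 and 6.46 in C57BL6J anti-GBM GN, 5.30, 5.33 and 5.25 in 129S2SvPAs controls and 5.96, 6.63 and 6.63 in 129S2SvPAs anti-GBM GN. The 129S2SvPAs controls lay below all other arrays. Irf9 rose 2.16-fold in 129S2SvPAs (adjusted p = 0.00696); in C57BL6J all diseased arrays were above the controls, with a difference of 0.62 (adjusted p = 0.152). Its strain difference was -1.06 in controls (adjusted p = 0.0189) and -0.57 in anti-GBM GN (adjusted p = 0.186). For Irf1, which serves both type I and gamma signals, the values were 6.89, 6.56 and 6.53 in C57BL6J controls, 7.29, 7.33 and 7.15 in C57BL6J anti-GBM GN, 5.53, 5.91 and 4.72 in 129S2SvPAs controls and 6.40, 6.55 and 6.52 in 129S2SvPAs anti-GBM GN. The diseased arrays lay above the controls in both strains, and the 129S2SvPAs controls were lowest. The rise was 2.15-fold in 129S2SvPAs (adjusted p = 0.00892), the difference in C57BL6J was 0.60 (adjusted p = 0.186), and Irf1 was 2.42-fold lower in 129S2SvPAs controls (adjusted p = 0.00898). Stat2 stayed between 3.32 and 3.60 on every array, little above the table median. Its other probe set read 2.83 to 3.29 and was above that median on 3 arrays only. At such low signals a change may not be detectable, so Stat2 is not shown to be unchanged.

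Of the ISG15 system, Usp18 and Herc6 could be read. Usp18 removes ISG15 from proteins and blocks signalling at Ifnar2. Its values were 5.75, 5.58 and 5.48 in C57BL6J controls, 7.27, 7.34 and 6.41 in C57BL6J anti-GBM GN, 3.01, 3.41 and 2.73 in 129S2SvPAs controls and 3.42, 4.96 and 5.21 in 129S2SvPAs anti-GBM GN. The C57BL6J arrays lay above all 129S2SvPAs arrays, and replicate 1 of the diseased 129S2SvPAs mice was just above the controls' range. With 2 of the 3 129S2SvPAs controls under the table median, Usp18 rose at least 2.59-fold in 129S2SvPAs (SE 0.42 on the log2 scale, adjusted p = 0.0291), and in C57BL6J the difference was 1.40 (SE 0.42, adjusted p = 0.0731). It was at least 5.45-fold lower in 129S2SvPAs controls (adjusted p = 0.00347) and 5.57-fold lower in 129S2SvPAs anti-GBM GN (adjusted p = 0.00423). Herc6, the main ligase that attaches ISG15 in the mouse, gave 3.89, 3.95 and 4.21 in C57BL6J controls, 5.32, 4.84 and 4.78 in C57BL6J anti-GBM GN, 3.69, 3.43 and 3.29 in 129S2SvPAs controls and 3.71, 3.92 and 3.44 in 129S2SvPAs anti-GBM GN. The diseased C57BL6J arrays were above all the others. Herc6 rose 1.95-fold in C57BL6J (adjusted p = 0.00952), while the difference in 129S2SvPAs was 0.22 (adjusted p = 0.453). In anti-GBM GN it was 2.45-fold lower in 129S2SvPAs (adjusted p = 0.00145).

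The IFIT proteins bind viral RNA that lacks the host's cap methylation. Of the 3 tested, none rose in C57BL6J by the adjusted test, 1 rose in 129S2SvPAs, and 2 in controls and 3 in anti-GBM GN were lower in 129S2SvPAs. Ifit1 gave 4.83, 4.61 and 4.91 in C57BL6J controls, 6.10, 6.44 and 5.57 in C57BL6J anti-GBM GN, 2.43, 2.57 and 2.88 in 129S2SvPAs controls and 3.23, 4.64 and 4.63 in 129S2SvPAs anti-GBM GN. Its 129S2SvPAs controls were all under the table median, and 2 of the 3 diseased arrays of that strain came near healthy C57BL6J. Ifit1 rose at least 2.2-fold in 129S2SvPAs (adjusted p = 0.0101), with a difference of 1.25 in C57BL6J (adjusted p = 0.0566). It was at least 3.37-fold lower in 129S2SvPAs controls (adjusted p = 0.00334) and 3.66-fold lower in 129S2SvPAs anti-GBM GN (adjusted p = 0.00747). Ifit3, a partner of Ifit1, had values of 7.59, 7.19 and 7.61 in C57BL6J controls, 7.99, 8.05 and 7.85 in C57BL6J anti-GBM GN, 6.21, 6.75 and 6.10 in 129S2SvPAs controls and 5.69, 6.87 and 6.41 in 129S2SvPAs anti-GBM GN. Every C57BL6J array was above every 129S2SvPAs array. Its strain difference was -1.11 in controls (adjusted p = 0.0303) and -1.64 in anti-GBM GN (adjusted p = 0.00385), and its difference with disease in 129S2SvPAs was -0.03. Signals of Ifit2 were 6.95, 6.88 and 6.77 in C57BL6J controls, 7.55, 7.24 and 7.10 in C57BL6J anti-GBM GN, 6.39, 6.52 and 5.86 in 129S2SvPAs controls and 6.17, 6.74 and 6.73 in 129S2SvPAs anti-GBM GN. The strains were separate in each state, by -0.61 in controls (adjusted p = 0.101) and -0.75 in anti-GBM GN (adjusted p = 0.049).

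Both tested OAS-like genes rose in C57BL6J and neither passed the test in 129S2SvPAs. Oasl2 is related to the enzymes that make 2′-5′ oligoadenylate. It read 4.03, 4.38 and 4.35 in C57BL6J controls, 5.97, 7.07 and 5.95 in C57BL6J anti-GBM GN, 2.69, 2.73 and 2.41 in 129S2SvPAs controls and 2.68, 4.03 and 4.05 in 129S2SvPAs anti-GBM GN. The diseased C57BL6J arrays were above all others, and in diseased 129S2SvPAs glomeruli replicate 1 did not leave the range of its controls. Oasl2 rose 4.22-fold in C57BL6J (SE 0.38 on the log2 scale, adjusted p = 0.00766), and in 129S2SvPAs the difference was 0.98 (SE 0.38, adjusted p = 0.0961). All 3 129S2SvPAs controls and that replicate were under the table median. Oasl2 was at least 2.33-fold lower in 129S2SvPAs controls (adjusted p = 0.023) and at least 6.18-fold lower in 129S2SvPAs anti-GBM GN (adjusted p = 0.00123). Oasl1, a relative that lowers translation of Irf7 in mouse cells, gave 3.03, 3.00 and 2.99 in C57BL6J controls, 4.05, 3.95 and 3.49 in C57BL6J anti-GBM GN, 3.01, 3.03 and 3.02 in 129S2SvPAs controls and 2.82, 3.29 and 3.44 in 129S2SvPAs anti-GBM GN. No control array was above the table median, and the gene passed the filter through the diseased arrays, 3 of C57BL6J and 2 of 129S2SvPAs, so that its rise is no independent evidence. It rose at least 1.74-fold in C57BL6J (adjusted p = 0.0174), differed by 0.16 in 129S2SvPAs (adjusted p = 0.576) and was at least 1.49-fold lower in diseased 129S2SvPAs than in diseased C57BL6J glomeruli (adjusted p = 0.0457).

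Rsad2 had the largest fitted rise of the 32 genes in each strain. It encodes viperin, an enzyme that turns CTP into a chain terminator of viral RNA synthesis. Its log2 signals were 8.63, 8.56 and 8.62 in C57BL6J controls, 10.89, 11.16 and 10.49 in C57BL6J anti-GBM GN, 5.71, 6.28 and 5.69 in 129S2SvPAs controls and 9.16, 9.02 and 8.59 in 129S2SvPAs anti-GBM GN. The groups were separate except that healthy C57BL6J overlapped with diseased 129S2SvPAs glomeruli. Rsad2 rose 4.73-fold in C57BL6J (log2 difference 2.24, SE 0.21, adjusted p = 0.000149) and 8.17-fold in 129S2SvPAs (3.03, SE 0.21, adjusted p = 1.12e-05). In controls it was 6.54-fold lower in 129S2SvPAs (adjusted p = 2.48e-05), and in anti-GBM GN 3.79-fold lower (adjusted p = 0.000305). Cmpk2, a mitochondrial nucleotide kinase encoded next to Rsad2, differed by 0.70 and 0.20 with disease (adjusted p = 0.379 and 0.812) and passed no test.

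Bst2 and Ifitm3 encode membrane proteins, tetherin, which holds budding virus at the cell surface, and a block to viral fusion in endosomes. Bst2 gave 7.64, 7.83 and 7.74 in C57BL6J controls, 8.23, 8.61 and 7.84 in C57BL6J anti-GBM GN, 5.64, 5.98 and 5.80 in 129S2SvPAs controls and 6.88, 6.92 and 7.16 in 129S2SvPAs anti-GBM GN. The strains did not overlap in either state. Bst2 rose 2.27-fold in 129S2SvPAs (adjusted p = 0.00112), with a difference of 0.49 in C57BL6J (adjusted p = 0.141). It was 3.81-fold lower in 129S2SvPAs controls (adjusted p = 8.32e-05) and 2.36-fold lower in 129S2SvPAs anti-GBM GN (adjusted p = 0.00174). Ifitm3 read 10.65, 10.82 and 10.46 in C57BL6J controls, 11.71, 12.21 and 11.32 in C57BL6J anti-GBM GN, 9.38, 9.65 and 8.75 in 129S2SvPAs controls and 10.35, 11.17 and 10.99 in 129S2SvPAs anti-GBM GN. Diseased arrays lay above controls in both strains. Ifitm3 rose 2.15-fold in C57BL6J (adjusted p = 0.0462) and 2.98-fold in 129S2SvPAs (adjusted p = 0.00346), and in controls it was 2.61-fold lower in 129S2SvPAs (adjusted p = 0.015). Samd9l, which restricts poxviruses and slows cell growth, was the one gene of the 32 that fell. Its values were 9.68, 9.64 and 9.80 in C57BL6J controls, 9.42, 9.33 and 9.61 in C57BL6J anti-GBM GN, 8.72, 8.72 and 8.42 in 129S2SvPAs controls and 7.36, 8.08 and 8.04 in 129S2SvPAs anti-GBM GN. Diseased arrays lay below controls in each strain, and 129S2SvPAs arrays below C57BL6J ones. It fell 1.73-fold in 129S2SvPAs (adjusted p = 0.0115), differed by -0.25 in C57BL6J (adjusted p = 0.493), and was 2.12-fold and 3.09-fold lower in 129S2SvPAs controls and anti-GBM GN (adjusted p = 0.00435 and 0.00034).

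The interferon-inducible GTPases attack the vacuoles of intracellular parasites and respond mainly to interferon gamma. None of the 6 rose in C57BL6J by limma (1 had an unadjusted p under 0.05), Gbp2 and Gbp3 rose in 129S2SvPAs, and 5 of the 6 were lower in 129S2SvPAs controls. Iigp1, which coats the vacuole, gave 8.17, 7.84 and 8.41 in C57BL6J controls, 8.07, 7.87 and 7.86 in C57BL6J anti-GBM GN, 4.87, 5.21 and 5.29 in 129S2SvPAs controls and 4.93, 6.02 and 6.59 in 129S2SvPAs anti-GBM GN. The strains lay far apart in each state. Iigp1 was 8.09-fold lower in 129S2SvPAs controls (SE 0.34 on the log2 scale, adjusted p = 0.000308) and 4.25-fold lower in 129S2SvPAs anti-GBM GN (SE 0.34, adjusted p = 0.00331). With disease it differed by -0.21 in C57BL6J and 0.72 in 129S2SvPAs (adjusted p = 0.809 and 0.162). Igtp, a regulator of this family, read 7.92, 7.05 and 7.96 in C57BL6J controls, 7.61, 7.67 and 8.01 in C57BL6J anti-GBM GN, 6.09, 6.29 and 6.18 in 129S2SvPAs controls and 6.47, 6.52 and 6.88 in 129S2SvPAs anti-GBM GN. The strains were separate in each state, by -1.46 and -1.14 (adjusted p = 0.00287 and 0.0115). Values of Irgm2, another regulator, were 7.10, 6.41 and 6.95 in C57BL6J controls, 6.74, 6.75 and 6.91 in C57BL6J anti-GBM GN, 5.25, 5.34 and 5.01 in 129S2SvPAs controls and 4.92, 5.72 and 6.14 in 129S2SvPAs anti-GBM GN. Its strain difference was -1.62 in healthy and -1.21 in diseased glomeruli (adjusted p = 0.00435 and 0.0212). Irgm1 passed no test, with strain differences of -0.48 and -0.91 (adjusted p = 0.32 and 0.0597).

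The guanylate-binding proteins Gbp2 and Gbp3 break open such vacuoles. Gbp2 gave 7.32, 6.75 and 6.95 in C57BL6J controls, 7.95, 7.12 and 7.48 in C57BL6J anti-GBM GN, 5.0, 5.55 and 4.23 in 129S2SvPAs controls and 5.84, 6.51 and 6.60 in 129S2SvPAs anti-GBM GN. The states were separate in 129S2SvPAs and overlapped in C57BL6J. It rose 2.62-fold in 129S2SvPAs (adjusted p = 0.0145), with a difference of 0.51 in C57BL6J (adjusted p = 0.441). The strain difference was -2.08 in controls (adjusted p = 0.00343) and -1.20 in anti-GBM GN (adjusted p = 0.0547). Gbp3 read 7.20, 6.67 and 6.99 in C57BL6J controls, 7.58, 8.02 and 7.17 in C57BL6J anti-GBM GN, 5.20, 5.64 and 5.70 in 129S2SvPAs controls and 6.22, 6.99 and 7.07 in 129S2SvPAs anti-GBM GN. Its 129S2SvPAs controls lay below all the other arrays. It rose 2.37-fold in 129S2SvPAs (adjusted p = 0.00856), differed by 0.64 in C57BL6J (adjusted p = 0.209) and was 2.71-fold lower in 129S2SvPAs controls (adjusted p = 0.00854).

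In antigen processing, Tap1 rose in C57BL6J and the immunoproteasome subunit Psmb8 in 129S2SvPAs. Tap1 carries peptides into the endoplasmic reticulum for MHC class I. Its values were 6.07, 5.27 and 5.44 in C57BL6J controls, 6.64, 6.99 and 7.28 in C57BL6J anti-GBM GN, 4.73, 5.53 and 4.91 in 129S2SvPAs controls and 5.41, 5.41 and 5.46 in 129S2SvPAs anti-GBM GN. The controls of both strains overlapped, and the diseased C57BL6J arrays lay above all others. Tap1 rose 2.6-fold in C57BL6J (adjusted p = 0.00784), differed by 0.37 in 129S2SvPAs (adjusted p = 0.351) and was 2.91-fold lower in diseased 129S2SvPAs glomeruli (adjusted p = 0.00353). Psmb8 gave 7.37, 6.76 and 6.85 in C57BL6J controls, 7.97, 7.69 and 7.37 in C57BL6J anti-GBM GN, 4.93, 5.81 and 4.99 in 129S2SvPAs controls and 5.69, 6.45 and 6.61 in 129S2SvPAs anti-GBM GN. It rose 2.01-fold in 129S2SvPAs (adjusted p = 0.0378, and 0.0568 with the replicate number as a block), where the arrays of the states overlapped, and the strain difference was -1.75 in healthy and -1.43 in diseased glomeruli (adjusted p = 0.00479 and 0.015). Psmb9, the other immunoproteasome subunit tested, read 6.72, 6.43 and 6.20 in C57BL6J controls, 6.67, 6.81 and 6.40 in C57BL6J anti-GBM GN, 5.14, 5.23 and 4.42 in 129S2SvPAs controls and 4.79, 4.92 and 5.13 in 129S2SvPAs anti-GBM GN. The strains were fully separate while the states overlapped. Its strain difference was -1.52 in healthy and -1.68 in diseased glomeruli (adjusted p = 0.00173 and 0.000854), and its differences with disease were 0.18 and 0.02.

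The remaining 4 tested genes were Xaf1, Rtp4, Ifi35 and Parp14. Rtp4, a chaperone for receptors, had values of 7.79, 7.36 and 7.13 in C57BL6J controls, 8.79, 8.97 and 7.97 in C57BL6J anti-GBM GN, 5.20, 5.80 and 4.58 in 129S2SvPAs controls and 5.88, 7.33 and 7.48 in 129S2SvPAs anti-GBM GN. Diseased arrays lay above controls in both strains. Rtp4 rose 3.26-fold in 129S2SvPAs (adjusted p = 0.0209), differed by 1.15 in C57BL6J (adjusted p = 0.164), and was 4.7-fold and 3.2-fold lower in 129S2SvPAs controls and anti-GBM GN (adjusted p = 0.0114 and 0.0426). Ifi35, an interferon-induced leucine zipper protein, gave 8.92, 9.03 and 8.94 in C57BL6J controls, 9.65, 9.89 and 9.47 in C57BL6J anti-GBM GN, 8.62, 8.47 and 8.73 in 129S2SvPAs controls and 9.74, 9.05 and 9.30 in 129S2SvPAs anti-GBM GN. It rose by nearly the same amount in both strains, 1.63-fold and 1.69-fold (adjusted p = 0.033 and 0.0104); the 95% interval of the difference of these responses on the log2 scale ran from -0.49 to 0.59. Parp14, an ADP-ribosyltransferase, read 5.83, 6.56 and 6.09 in C57BL6J controls, 6.99, 7.64 and 6.79 in C57BL6J anti-GBM GN, 4.18, 5.87 and 4.71 in 129S2SvPAs controls and 6.31, 6.51 and 6.45 in 129S2SvPAs anti-GBM GN. It rose 2.83-fold in 129S2SvPAs (adjusted p = 0.0169), and its difference in C57BL6J was 0.98 (adjusted p = 0.161).

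Xaf1 needs its 2 probe sets side by side. Xaf1 binds the apoptosis inhibitor XIAP. The probe set with the higher mean gave 7.46, 7.46 and 6.89 in C57BL6J controls, 8.74, 9.10 and 7.97 in C57BL6J anti-GBM GN, 3.54, 4.45 and 4.34 in 129S2SvPAs controls and 4.66, 4.94 and 4.99 in 129S2SvPAs anti-GBM GN. By it, Xaf1 was 8.94-fold lower in 129S2SvPAs controls (adjusted p = 0.000119) and 13.36-fold lower in anti-GBM GN (adjusted p = 4.27e-05), and it rose 2.52-fold in C57BL6J (adjusted p = 0.0264). The other probe set gave 3.81, 2.62 and 3.22 in C57BL6J controls, 3.98, 4.08 and 3.49 in C57BL6J anti-GBM GN, 7.0, 7.72 and 7.18 in 129S2SvPAs controls and 8.73, 9.17 and 9.22 in 129S2SvPAs anti-GBM GN. Here the strains stood the other way round, with 129S2SvPAs higher by 4.08 in controls (adjusted p = 2.07e-05) and by 5.19 in anti-GBM GN (adjusted p = 3.44e-06), and the rise with disease was 1.74 in 129S2SvPAs (adjusted p = 0.00291) and 0.63 in C57BL6J (adjusted p = 0.292). No direction of the strain difference can therefore be given for Xaf1, and it is counted with the others above by the rule of the highest mean alone. Over the other tested probe sets of these genes, 14 in 11 genes, 12 had the same direction with disease as the chosen one in each strain, and 8 had the same direction of strain difference in each state and 6 did not. Xaf1 was the one gene called in opposite directions by its probe sets. Of the other genes lower in 129S2SvPAs, the second probe set of Rtp4 differed by 0.08 in controls and 0.06 in anti-GBM GN (adjusted p = 0.745 and 0.812), with signals of 3.02 to 3.39, and that of Psmb8 by 0.06 in controls (adjusted p = 0.779), with signals of 3.54 to 3.77. Cmpk2, Eif2ak2 and Stat2, which were not called, make up the rest. The second probe set of Herc6 differed by -0.08 with disease in C57BL6J (adjusted p = 0.765), with signals of 2.97 to 3.40. Whether sequence variants between the strains under the probes bear on any strain difference was not tested. Rsad2 was read by 3 probe sets, all in the same direction: the second rose by 2.27 in C57BL6J and 3.46 in 129S2SvPAs, and the third by 2.40 and 2.58. Their strain differences were -3.26 and -2.49 in controls. The second probe set of Iigp1 differed between strains by -2.38 in controls and -1.26 in anti-GBM GN, and rose in 129S2SvPAs by 0.84 (adjusted p = 0.0437). Without Xaf1 the group means of the remaining genes were 0.27, 0.97, -0.99 and -0.25, in the order used above.

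**Figure D4:**
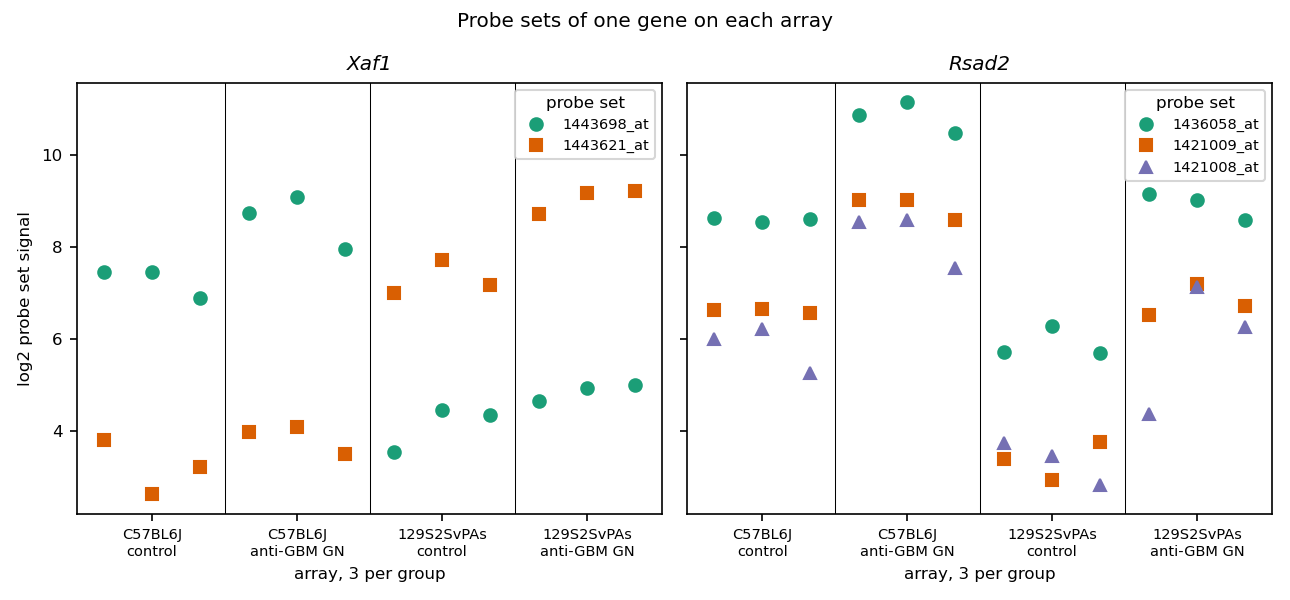
Log2 signal of each probe set of Xaf1 (left) and Rsad2 (right) on the 12 arrays, 3 per group; each symbol is a probe set and each point an array. The 2 probe sets of Xaf1 exchange places between the strains, while the 3 of Rsad2 move in the same direction.

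Whether the strains respond differently was tested directly, as the 129S2SvPAs response minus the C57BL6J response. None of the 32 genes passed (0.562% of all genes tested did), and adjusted p ranged from 0.309 to 0.991. At an unadjusted p under 0.05 there were 5. Rsad2 and Bst2 had the larger rise in 129S2SvPAs, by 0.79 (95% interval 0.12 to 1.45) and 0.69 (0.13 to 1.25). Tap1, Herc6 and Oasl1 had the smaller rise there, with differences of -1.01 (-1.79 to -0.22), -0.74 (-1.31 to -0.17) and -0.66 (-1.21 to -0.11). The response was larger in 129S2SvPAs for 17 genes and smaller for 15, with a median difference of 0.06. The intervals reached 0.32 to 1.40 log2 units to either side (median 0.82), so the responses are not shown to be alike. Of the genes called, 4 were called in both strains, Ifi35, Ifitm3, Irf7 and Rsad2, which is 44.4% of the 9 in C57BL6J and 26.7% of the 15 in 129S2SvPAs.

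Single arrays mattered for part of these calls. In C57BL6J, Herc6, Irf7, Oasl2, Rsad2 and Tap1 were called whichever array was left out. Without any 1 of the 3 C57BL6J controls, or without replicate 1 or 2 of C57BL6J anti-GBM GN, 5 genes remained called in place of 9, with 3.41% to 4.75% of all genes called, and without replicate 3 of the latter there were 13 (8.2%). The others were lost at times, with the highest adjusted p at 0.145 for Ifi35, 0.198 for Ifitm3, 0.0825 for Oasl1 and 0.122 for Xaf1. In the fit of the C57BL6J arrays alone with the replicate number as a block, 16 genes rose (10.7% of all genes were called). In the fit of all arrays with that block 9 rose, of which 8 were among the 9 above, and Ifi35 was lost (adjusted p = 0.0529). In 129S2SvPAs, 9 genes (Bst2, Gbp3, Ifi35, Ifit1, Ifitm3, Irf1, Irf9, Rsad2 and Samd9l) were called whichever array was left out. The count was 9 (8 higher, 1 lower) without replicate 2 of 129S2SvPAs anti-GBM GN (14.8% of all genes), and 20 (19 higher, 1 lower) without replicate 1, the array that stood apart (22.2%). Gbp2, Irf7, Parp14, Psmb8, Rtp4 and Usp18 were lost at times, with the highest adjusted p at 0.0535, 0.0803, 0.0585, 0.127, 0.0787 and 0.102. A fit of the 129S2SvPAs arrays alone called 5 of the 32, and 11.9% of all genes. For the strain difference, 16 of 20 calls in controls and 14 of 19 in anti-GBM GN held without any 1 array; those lost at times were Ifit3, Ifitm3, Irf9 and Oasl2 in controls (highest adjusted p 0.0984, 0.0676, 0.0610 and 0.0871) and Ifit2, Irgm2, Oasl1, Psmb8 and Rtp4 in anti-GBM GN (0.171, 0.0635, 0.163, 0.0652 and 0.153). The last comparison also lost Ifit2 and Oasl1 with the block in the fit of all arrays (adjusted p = 0.0632 and 0.0762). With the block in a fit of the control arrays alone, Irf1 and Ifit3 were lost in controls (adjusted p = 0.0543 and 0.0697).

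Marker transcripts of the cell types in the preparation differed with the strain and with disease. Podocyte markers, which include nephrin (Nphs1), Wt1 and podocalyxin (Podxl), were present on all arrays, and all 12 proximal tubule markers passed the filter as well. All 7 measured podocyte markers were lower in 129S2SvPAs controls and 5 of 7 in anti-GBM GN. Their summed log2 signal ran from 58.4 to 63.0 in C57BL6J controls, 55.3 to 62.2 in C57BL6J anti-GBM GN, 46.6 to 52.2 in 129S2SvPAs controls and 46.2 to 48.8 in 129S2SvPAs anti-GBM GN. The strains did not overlap in this sum. With disease in 129S2SvPAs 2 of the 7 podocyte markers rose and 2 fell, so the sum mixes opposite changes. None of the 7 was called with disease in C57BL6J. Of 6 pan-leukocyte markers 2 were lower in 129S2SvPAs controls and all 6 in 129S2SvPAs anti-GBM GN, with sums of 38.6 to 44.4, 38.4 to 44.8, 27.7 to 37.2 and 27.9 to 30.4 in the same order. Endothelial markers summed to 82.4 to 89.3, 83.3 to 89.5, 69.3 to 81.9 and 80.4 to 82.8. Of these 9, 2 were lower in 129S2SvPAs controls, and 4 rose (among them Pecam1, by 2.67) and 1, Ehd3, fell with disease in 129S2SvPAs. In C57BL6J 1 of the 9 fell with disease and none rose, and 1 was lower in 129S2SvPAs anti-GBM GN than in C57BL6J anti-GBM GN. No macrophage marker of 8 tested passed limma's test with disease in either strain, and 2 in C57BL6J and 1 in 129S2SvPAs had an unadjusted p under 0.05. Between the strains none of the 8 was called in controls, and 1 was lower in 129S2SvPAs anti-GBM GN. The macrophage sums were 51.2 to 55.6, 52.4 to 60.4, 47.8 to 53.6 and 50.5 to 51.1. Other lists moved too. Of 5 mesangial markers 2 rose in C57BL6J and 3 in 129S2SvPAs, among them Des and Acta2 in both, with sums of 33.2 to 37.2, 39.4 to 41.8, 33.6 to 35.2 and 39.1 to 42.3. Neutrophil markers summed to 21.3 to 25.1, 21.3 to 25.5, 18.4 to 18.9 and 19.8 to 22.4, and 2 of the 3 tested, S100a8 and S100a9, were lower in 129S2SvPAs controls. T and NK cell markers summed to 31.9 to 34.0, 31.5 to 33.1, 28.2 to 30.6 and 28.6 to 29.6. The strains were separate in each state, but of the 11 measured markers only 3 passed the filter. Gzma was lower in 129S2SvPAs by log2 differences of -2.86 and -2.50, while Cd4 and Cd8a had slightly higher means there in each state. Among the 3 tested dendritic markers none was called within a strain. Zbtb46 and Tcf4 rose on average by 0.75 and 0.55, where 26.6% of all genes were called, and Ccr9 did not rise. Siglech, the defining marker of plasmacytoid dendritic cells, lay under the filter, as did Flt3, Xcr1 and Itgax of the same list. Cd3e and Cd3g, which define T cells, lay under it too. B cell markers summed to 14.3 to 15.9, 13.7 to 14.7, 13.1 to 13.6 and 13.1 to 13.4. Of the 5 measured, 2 passed the filter. Of these 2, 1 fell with disease in C57BL6J and 1 was lower in 129S2SvPAs controls. Loop, distal tubule and collecting duct markers summed to 89.3 to 91.7, 84.5 to 90.6, 94.0 to 95.5 and 84.9 to 87.6. The control arrays of the strains did not overlap in this sum. Of these 9 markers, 2 were higher in 129S2SvPAs controls. With disease 1 fell in C57BL6J, and 4 fell and 1 rose in 129S2SvPAs. The part of these lists in the results was not tested.

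In fits added after the data were seen, with a list's mean on each array as a covariate, the strain difference in controls had a median over the 32 genes of -1.12 for podocyte, -0.89 for pan-leukocyte and -0.87 for endothelial markers, beside -1.31 without one. The genes called lower were then 2, 6 and 5 of 32, while 0.562%, 3.38% and 2.04% of all genes were called in those fits, down from 8.43%. In anti-GBM GN the median was -1.21 with podocyte and -0.53 with pan-leukocyte markers, beside -1.22. With each, 1 gene was called (0.579% and 1.04% of all genes), and with endothelial markers 14 were (5.02%). The podocyte and pan-leukocyte means did not overlap between the strains, so those fits cannot separate the list from the strain. In controls the endothelial means ran from 0.01 to 0.77 in C57BL6J and from -1.45 to -0.05 in 129S2SvPAs. In anti-GBM GN they ran from 0.11 to 0.79 and from -0.21 to 0.05. Within each state the strains were thus separate, and the endothelial fits of the strain difference have the same limit. The response in 129S2SvPAs had a median of 0.66 with endothelial markers, beside 0.74, and 4 genes were called (11.7% of all genes). With podocyte markers 14 were called (19%), and with pan-leukocyte markers 16 (20.7%). Proximal tubule markers fell with disease, 2 of 12 in C57BL6J and 6 of 12 in 129S2SvPAs. Their sums were 146.8 to 150.3, 141.7 to 146.0, 148.4 to 151.4 and 138.3 to 140.6. A covariate of these markers left 20 genes called between the control groups (6.43% of all genes) and 6 between the diseased groups (2.25%). With their mean as covariate the median response was 0.62 in C57BL6J (1 gene called, and 1.12% of all genes). In 129S2SvPAs it was 0.90 (none called by limma, 3 at an unadjusted p under 0.05, where 0.0252% of all genes were called). The proximal tubule means of control and diseased arrays did not overlap in either strain, so these fits cannot separate the list from the disease state. Between the diseased groups of the strains they did not overlap either, which limits that strain comparison in the same way. Platelet markers rose as well, 3 of 5 in C57BL6J and 2 of 5 in 129S2SvPAs, with sums of 17.2 to 20.9, 28.0 to 31.8, 16.2 to 16.5 and 23.8 to 26.2, and their part in the responses was not tested.

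**Figure D5:**
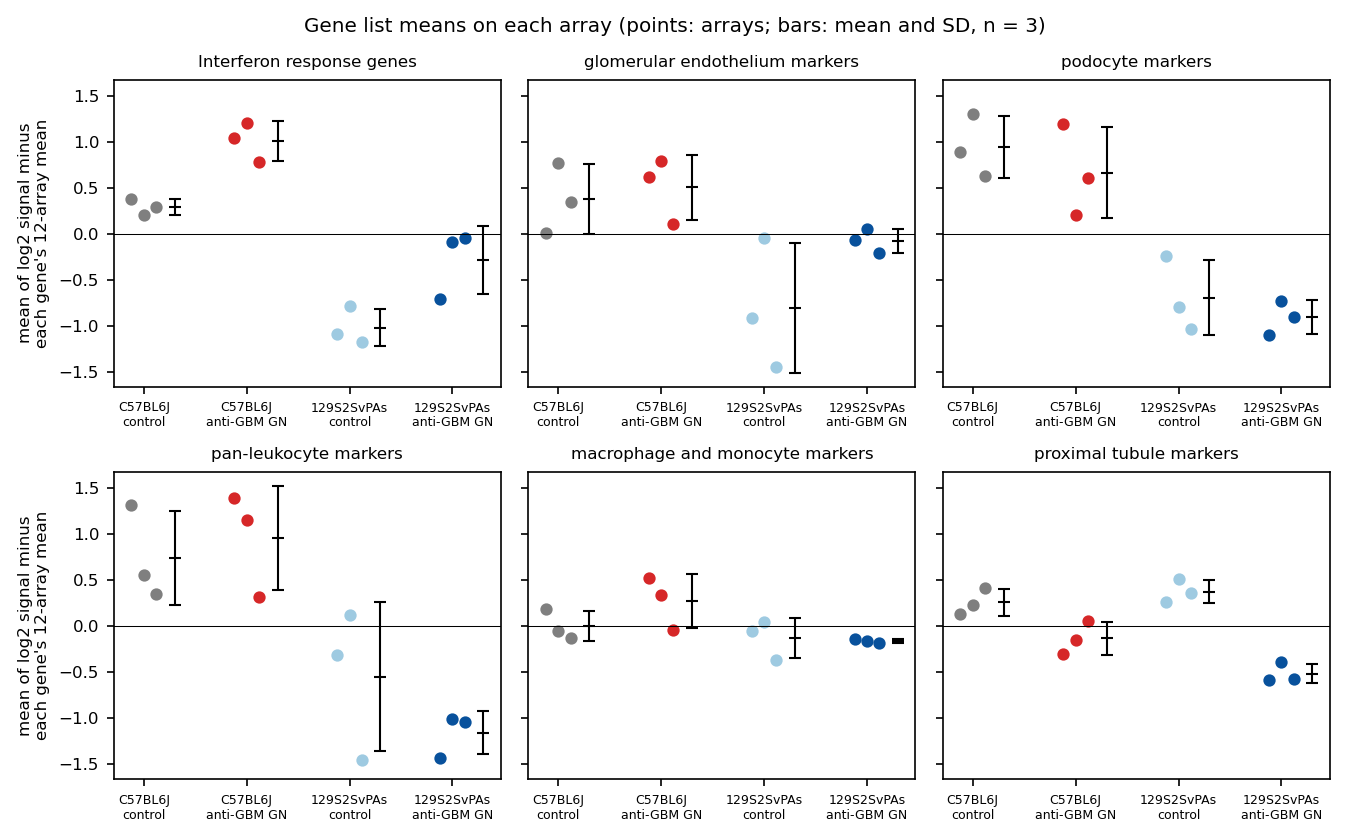
Mean over each gene list of log2 signal minus the gene's 12-array mean (vertical axis), for the 32 interferon response genes and 5 lists of cell-type markers; points are arrays and bars the mean ± SD of 3 arrays. Podocyte and pan-leukocyte means are lower in 129S2SvPAs in both states, as is the mean of the interferon response genes, which also rises with disease in each strain.

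Upstream of these genes, a list of 56 interferons, receptor chains, kinases, other interferon regulatory factors, sensors, adaptors and inhibitors was examined, of which 42 had a probe set and 25 were tested. All 10 measured interferons, among them Ifnb1 and Ifng, were under the filter, with log2 signals of 2.11 to 3.02 on every array. In C57BL6J 1 of the 25 rose, Ddx58 (RIG-I, a sensor of viral RNA), by 0.47, where 7.09% of all genes were called. In 129S2SvPAs 4 rose and 1 fell, where 20.3% of all genes were called, so in neither strain was the count above the background. The Ddx58 call was lost without any 1 of 4 arrays (highest adjusted p 0.0939). Ifngr2, the signalling chain of the interferon gamma receptor, gave 4.71, 4.87 and 4.75 in C57BL6J controls, 6.15, 6.17 and 6.23 in C57BL6J anti-GBM GN, 5.22, 3.84 and 2.97 in 129S2SvPAs controls and 6.07, 6.77 and 5.80 in 129S2SvPAs anti-GBM GN. Diseased arrays were above controls in both strains, and the 129S2SvPAs controls were spread widely. Ifngr2 rose at least 4.54-fold in 129S2SvPAs (adjusted p = 0.00575), and its difference in C57BL6J was 1.41 (adjusted p = 0.0935). Ifnar1, a chain of the type I receptor, rose by 0.60 in 129S2SvPAs (adjusted p = 0.00722) and was higher in diseased 129S2SvPAs than diseased C57BL6J glomeruli by 0.47 (adjusted p = 0.0444), a call lost without any 1 of 8 arrays (highest adjusted p 0.159). Stat3 and Socs3, the transducer and the feedback inhibitor of interleukin-6 type cytokines, rose 3.71-fold and 3.61-fold in 129S2SvPAs (adjusted p = 0.000923 and 0.000678), and the kinase Jak2 fell by 0.49 (adjusted p = 0.0206, and up to 0.075 without 1 array). Socs3 was also 2.1-fold lower in 129S2SvPAs controls (adjusted p = 0.0292, and up to 0.0885 without 1 array). Averaged over the strains, 8 of the 25 rose and 1 fell, where 26.6% of all genes were called (13.0% higher and 13.6% lower). Among the risers were the sensors Tlr3 and Tlr4 and the adaptor Myd88. The Tlr4 call was lost without any 1 of 8 arrays (highest adjusted p 0.105) and the Tlr3 call without any 1 of 6 (0.0787). Ifnar2, Ifngr1 and Il10rb passed no test, and Ifnlr1 was under the filter.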

How the data were processed

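Glomerular total RNA from 12 mice was measured on 12 Affymetrix arrays. The authors deposited log2 signals, 1 for each probe set, and the submitters' processing notes name MAS5 and GCRMA without saying which made these values. That these are log2 values follows from their range of 1.12 to 15.02, with array medians between 2.99 and 3.06. No scan date or batch is given in the sources used here, and the number of arrays limits the precision. Probe sets of 1 symbol were kept, the one of highest mean stood for its gene, and genes above the table median (3.03) on at least 3 arrays were tested. One mean per group was fitted to all 12 arrays with limma 3.58.1 in R 4.3.3 (lmFit and eBayes), and p was adjusted by Benjamini-Hochberg over 11921 genes at 0.05. Tables and figures used Python 3.11.15, pandas 2.3.3 and matplotlib 3.10.9. Both responses share arrays with both strain comparisons.

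The fit was tested on simulated data. The replicate numbers are no stated pairing. Deviations from the group means of same-numbered arrays correlated at 0.208, 0.241 and 0.330 between C57BL6J controls and anti-GBM GN and at 0.244, 0.284 and 0.239 between the controls of the strains, so a block on the number was also fitted there; the other pairs of groups ranged from -0.380 to 0.214.

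The genes and lists were chosen with earlier results of these data known. Values on every array are given for up to 8 called genes with the lowest p in each comparison and for every gene called between strains. Upstream genes are named when called or when they are interferons or receptor chains. Up to 6 further interferon-inducible genes and up to 3 markers per list with the lowest p in each comparison could be named. The alternatives were normalization, filter, probe-set choice, prior, array weights, block, samples fitted, marker covariates and leaving out each array.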

Additional observations from a re-analysis of the deposited data

How the results depend on the processing

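Quantile normalization, a shift of the arrays to one median, another filter, the mean of all probe sets and a trended, robust prior left each count of called genes within 1.5 times its value. The share of all genes called in the same fit stands in parentheses. For the response in C57BL6J (9 called, 7.09%), array weights gave 18 (17%), the proximal tubule covariate 1 (1.12%), the replicate block with only the groups compared, chosen after seeing the data, 16 (10.7%), and leaving out each array 5 to 13. For the response in 129S2SvPAs (15 called, 20.3%), the proximal tubule covariate gave 0 by limma (0.0252%), with 3 at an unadjusted p under 0.05, only the groups compared 5 (11.9%), the endothelial covariate 4 (11.7%), and leaving out each array 9 to 20. For the average response (20 called, 26.6%), the proximal tubule covariate gave 0 by limma (0.143%), with 5 at an unadjusted p under 0.05, and leaving out each array 20 to 25. The difference of responses stayed at 0 without each array. For the strain difference in controls (20 called, 8.43%), the endothelial covariate gave 5 (2.04%), the podocyte covariate 2 (0.562%), the pan-leukocyte covariate 6 (3.38%), and leaving out each array 16 to 22. For that in anti-GBM GN (19 called, 8.38%), the proximal tubule covariate gave 6 (2.25%), the podocyte covariate 1 (0.579%), the pan-leukocyte covariate 1 (1.04%), and leaving out each array 14 to 20. The cause was not tested. The endothelial, podocyte and pan-leukocyte covariates were chosen after seeing the data. Within each state their means did not overlap between the strains. The proximal tubule means did not overlap between the states in either strain, or between the strains in anti-GBM GN. In those comparisons a fit with the covariate cannot separate the list from the strain or the disease state. The longer ISRE letters were in 7 windows in place of 15.

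Of single genes, Xaf1 reversed with the mean of its probe sets, to 0.46 in controls and 0.72 in anti-GBM GN, since its probe sets oppose each other. With the pan-leukocyte covariate the strain difference in anti-GBM GN reversed for Ifit2, to 0.09, and for Rtp4, to 0.18; the cause was not tested. With the replicate block in the fit of all arrays, the called genes numbered 9, 14, 20, 0, 21 and 18 for the C57BL6J, 129S2SvPAs and average responses, their difference, and the strain differences in controls and anti-GBM GN; the calls it ended are named in the report. The 3 arrays a group limit the precision, and low signals such as those of Mx1 or the interferons leave their changes not detectable.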

Other observations

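A second list of 78 interferon-inducible genes outside the 39 was examined, of which 54 were tested. In C57BL6J 8 of them rose and none fell with anti-GBM GN, and in 129S2SvPAs 11 rose and none fell. In the same comparisons 7.09% and 20.3% of all genes were called (4.78% and 10.6% higher). The count in 129S2SvPAs was thus close to the share called in either direction. The median log2 difference was 0.32 and 0.30, and the chemokine Cxcl10 rose most in each strain, by 2.75 and 1.63. Both Cxcl10 calls held whichever array was left out. In controls 18 were lower in 129S2SvPAs and none was higher, where 8.43% of all genes were called. In anti-GBM GN 17 were lower and 1 was higher, where 8.38% were called. Slfn2, a regulator of immune cell quiescence, rose in both strains, by 1.35 and 1.51, and was lower in 129S2SvPAs by log2 differences of -1.57 and -1.41 in controls and anti-GBM GN (limma, adjusted p = 0.000142 and 0.000305). The chemokine Ccl5 was at least 5.25-fold lower in 129S2SvPAs controls, none of which was above the table median, and at least 5.82-fold lower in 129S2SvPAs anti-GBM GN (adjusted p = 0.000613 and 0.00138).

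Trim34a gave 6.97, 7.12 and 6.46 in C57BL6J controls, 6.94, 6.85 and 6.43 in C57BL6J anti-GBM GN, 2.43, 2.42 and 2.59 in 129S2SvPAs controls and 2.47, 2.57 and 2.59 in 129S2SvPAs anti-GBM GN. No 129S2SvPAs array was above the table median of 3.03. The gene passed the filter through the C57BL6J arrays, so that its strain difference is no independent evidence. It is counted among the 18 and 17 genes lower in 129S2SvPAs. With values under the median set to it, Trim34a was at least 14.1-fold lower in 129S2SvPAs controls and at least 13.1-fold lower in 129S2SvPAs anti-GBM GN (adjusted p = 1.34e-07 and 2.77e-07). Whether a sequence variant under its probes bears on this was not tested. The gene higher in diseased 129S2SvPAs glomeruli was Ifi202b, a DNA-binding protein of the IFI200 family, which is known to vary among inbred strains. It gave 3.17, 3.22 and 3.20 in C57BL6J controls, 3.24, 3.24 and 3.19 in C57BL6J anti-GBM GN, 3.30, 3.90 and 3.33 in 129S2SvPAs controls and 4.19, 5.26 and 5.01 in 129S2SvPAs anti-GBM GN. It rose by 1.31 in 129S2SvPAs (adjusted p = 0.00364) and differed by 0.03 in C57BL6J (adjusted p = 0.977), and its strain difference in anti-GBM GN was 1.60 (adjusted p = 0.00239). All C57BL6J values of Ifi202b, 3.17 to 3.24, lay little above the table median of 3.03. At such low signals a change may not be detectable, so Ifi202b is not shown to be unchanged in C57BL6J. In 129S2SvPAs, Ly6e, a surface protein that blocks viral entry, rose by 1.52 and the death ligand Tnfsf10 by 0.98. In C57BL6J the class I gene H2-K1 rose by 0.95 and the necroptosis effector Mlkl by 1.35. Nlrc5, the activator of MHC class I genes, was above the table median on the 3 diseased C57BL6J arrays and on no other. It entered the test through them, so that neither its rise nor its strain difference in anti-GBM GN is independent evidence. Both are in the counts above. None of the 54 passed the test for a difference between the responses, and 6 had an unadjusted p under 0.05.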
